A study of Mus musculus with 4 samples.

Results

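The transcripts of 8 genes of mismatch repair and nucleotide excision repair were followed after knockdown of the deubiquitinase USP9X in ID8, an established mouse ovarian cancer cell line. The 8 genes were *Msh3*, *Msh6* and *Pms2* of mismatch repair and *Xpc*, *Xpa*, *Ercc5*, *Ercc4* and *Ercc1* of nucleotide excision repair. They were picked by symbol, for their place in the pathways, from the 22063 genes listed, and all 8 passed the filter on low counts that left 11448 genes for testing. The data comprised 4 poly(A)-selected RNA-seq libraries, 2 of ID8 cells with a control short hairpin RNA (shCtrl, genotype given as WT) and 2 of ID8 cells with a hairpin against USP9X (shUSP9X, genotype given as a USP9X knockdown). The libraries share the ID8 background. The sample descriptions read shUSP9X-21 for shUSP9X replicate 1 and shUSP9X-22 for replicate 2, and what these numbers stand for is not stated. The labels name no drug, cytokine or hypoxic treatment for these libraries and do not say which hairpin was used or whether the replicates were separate cultures, so p-values measured only the spread between the libraries, which may be technical. Total estimated counts were 17232006 and 15611363 for shCtrl and 19978889 and 17021261 for shUSP9X, of which the 8 genes together took 6356, 5617, 7036 and 6130.

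Mismatch repair removes base mispairs and small insertion or deletion loops that escape the polymerase. A MutS heterodimer finds the error, with Msh6 giving the form that reads base mispairs and small loops and Msh3 the form that reads larger loops, and a MutL heterodimer with Pms2 then nicks the new strand so that it can be removed and resynthesised. Nucleotide excision repair cuts out bulky, helix-distorting lesions such as ultraviolet photoproducts and platinum adducts. Xpc senses the distortion, the helicase complex TFIIH opens the helix, Xpa checks the lesion and positions the nucleases, Ercc5 (XPG) cuts on its 3′ side and the Ercc4-Ercc1 (XPF-ERCC1) heterodimer on its 5′ side. Platinum drugs are used against ovarian cancer, and both pathways act on the damage that these drugs leave, which places the 8 genes beside the study's question of how USP9X bears on chemoresistance.

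*Pms2* and *Xpc* each begin next to a gene read in the other direction, and the DNA between the starts is shown because it is shared with a neighbour whose transcript was measured in the same libraries. Sequences are from RefSeq windows on GRCm38.p6, with 250 bases before and 50 after each start. Windows of 6 of the genes were read, those of *Msh6*, *Pms2*, *Ercc1*, *Ercc4*, *Xpa* and *Ercc5*. The first stretch is the 116 bases between the starts of *Aimp2* and *Pms2*, at chr5:143909848-143909963 on the plus strand, with CCAAT on either strand in capitals. The second, taken from the *Lsm3* window, is the 39 bases between *Xpc* and *Lsm3*, at chr6:91515889-91515927 on the plus strand, with no capitals because none of the strings searched was in it.
Pms2 and Aimp2: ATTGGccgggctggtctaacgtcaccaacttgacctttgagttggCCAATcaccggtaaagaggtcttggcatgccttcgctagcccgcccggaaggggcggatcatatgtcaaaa
Xpc and Lsm3: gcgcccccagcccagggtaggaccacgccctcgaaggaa

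Each string was searched on both strands of all 32851 RefSeq windows of 300 bases. CCAAT, the letters of the NF-Y box, was in 37.4% of all windows and occurred 3 times in that of *Pms2* and once each in those of *Msh6*, *Ercc4*, *Xpa* and *Ercc5*. GGGCGG, a GC box, was in 35.7% of all windows and occurred 5 times in that of *Msh6*, 2 times in *Pms2* and once in *Ercc1*. TATAAA was in 13.6% of all windows and in none of the 6. GC content was 71.7% in the *Msh6* window, against a median of 52.7% over all windows. These are matches of letters and were not tested as binding sites.

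The targeted gene was read first. *Usp9x* (chrX:13071498-13173328) had 298 and 282 CPM (counts scaled to library size with TMM factors) in shCtrl and 19.7 and 20.5 in shUSP9X, a log2 fold change of -3.85 (SE 0.06, edgeR quasi-likelihood adjusted p = 4.7e-26). Its level went with the label in all 4 libraries. Across all genes tested, 33.6% were called lower and 33.8% higher in shUSP9X at an adjusted p under 0.05, and the median size of a change was 0.377 on the log2 scale, so a call on any 1 gene was common in this comparison.

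Against that background, *Msh3*, *Xpa* and *Ercc5* fell, *Pms2*, *Ercc1* and *Ercc4* rose, and *Msh6* and *Xpc* did not pass the test. Thus 37.5% of the 8 were called lower and 37.5% higher in this fit, shares close to those of all genes. The median log2 fold change of the 8 was 0.12 against 0 over all genes tested. With an offset for GC content and length, 3 of the 8 were lower and 1 higher, where 27.9% and 35.2% of all genes tested were. At the study's own cutoff of an unadjusted p under 0.05 with a fold change above 1.5, *Msh3* and *Xpa* were lower, where 18.7% of all genes tested were. None of the 8 was higher at that cutoff in the edgeR fit, where 10.8% of all genes were, although all 3 that rose had an unadjusted p under 0.05. The CPM values of shUSP9X lay wholly below those of shCtrl for 3 of the 8 and wholly above for 4, against 41.0% and 41.2% of all genes tested. With 2 libraries a group an exact permutation test of a single gene cannot give a two-sided p below 0.333, so all calls rest on the variance shared across genes.

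**Figure D1:**
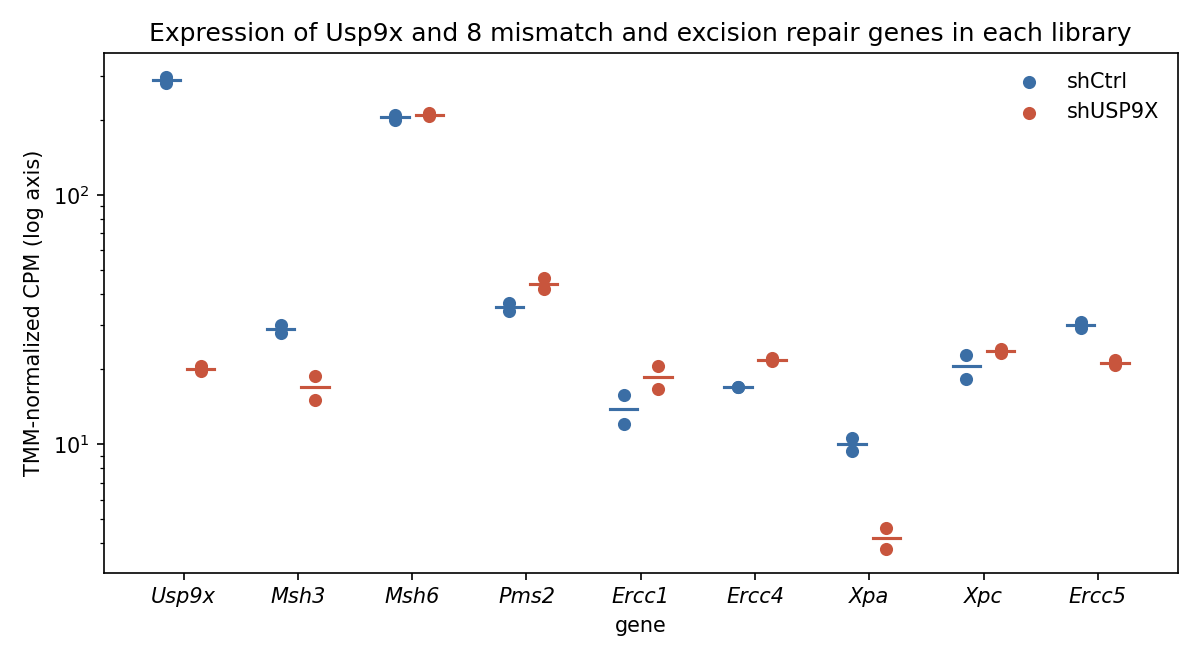
TMM-normalized CPM (log axis) of *Usp9x* and the 8 repair genes in each of the 4 libraries, with a point per library and a line at the group mean. *Usp9x* drops from a mean of 290 to 20.1 CPM, *Msh3*, *Xpa* and *Ercc5* lie lower in both shUSP9X libraries, and the points of *Msh6* overlap.

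Of the mismatch sensors, *Msh3* (chr13:92211872-92355003, minus strand) was counted 522 and 439 times with the control hairpin and 296 and 317 times with the USP9X hairpin, or 30.1 and 27.8 against 15 and 18.8 CPM. Both shUSP9X libraries were below both shCtrl libraries, and they differed more from each other than the controls did. The mean went from 28.9 ± 1.65 to 16.9 ± 2.72 CPM (SD, n = 2 libraries each), a log2 fold change of -0.78 (SE 0.11, 95% interval -1.01 to -0.56, edgeR adjusted p = 6.4e-07), or 1.72-fold lower. Of the genes tested, 14.5% had a lower log2 fold change.

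*Msh6* (chr17:87975062-87990892, plus strand), whose product competes with Msh3 for a common partner protein, had 210 and 200 CPM in shCtrl and 207 and 212 in shUSP9X. The libraries of the groups overlapped. The log2 fold change was 0.03 with an interval of -0.06 to 0.12 (edgeR adjusted p = 0.514), from 3634 and 3160 counts against 4086 and 3576. The gene was counted deeply, but that interval rests on 2 libraries a group and on variance shared across genes. As the replicates may be technical, it may not cover a change between separate cultures. The intervals of *Msh3* and *Msh6* were far apart, though the difference between the genes was not itself tested.

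In FPKM, which divides by transcript length so that genes can be set against each other, *Msh6* was 6.47 and 6.72 times *Msh3* in the shCtrl libraries and 12.8 and 10.1 times in the shUSP9X libraries. The ratio was higher in both knockdown libraries than in either control. Since FPKM is a level of RNA, it says nothing on the amount of either protein dimer.

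*Pms2* (chr5:143909964-143933968, plus strand), the endonuclease subunit of the MutL heterodimer, went the other way from *Msh3*. Its CPM were 37 and 34.3 in shCtrl and 41.8 and 46.3 in shUSP9X, with no overlap between the groups. The log2 fold change was 0.30 (SE 0.08, interval 0.14 to 0.47, edgeR adjusted p = 0.0017), which 72.6% of the genes tested lay below. In FPKM the gene had 12.4 and 10.8 in shCtrl and 16.8 in each shUSP9X library, a log2 ratio of the means of 0.54 and so larger than in the count fit.

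The remaining mismatch repair genes listed, *Pms1*, *Mlh3*, *Exo1* and *Ssbp1*, were 3 lower and 1 higher, where 33.6% and 33.8% of all genes tested were. The alternative MutL subunits fell most. *Pms1*, a MutL subunit without a known main part in repair in mammals, had 23.2 and 21.2 CPM in shCtrl and 4.5 and 5.99 in shUSP9X, a log2 fold change of -2.09 (SE 0.14, edgeR adjusted p = 1.1e-12). *Mlh3*, best known from meiotic crossing over, had 20.5 and 18.8 against 5.77 and 5.76 CPM, a log2 fold change of -1.77 (SE 0.14, edgeR adjusted p = 1.2e-11). Of the 3 MutL subunits, then, the one with the largest part in repair was higher and the other 2 were lower in both knockdown libraries. *Exo1*, the exonuclease that removes the nicked strand, rose by 0.24 on the log2 scale (edgeR adjusted p = 8.0e-04), or by 0.68 with an offset for GC content and length. *Ssbp1*, the mitochondrial single-stranded DNA binding protein that pathway lists often carry here, fell by 0.39 (edgeR adjusted p = 1.2e-04), and its log2 fold change was +0.49 with the offset. The offset took GC content and length from the longest protein-coding transcript of each gene, which may not be the one expressed. For *Ssbp1* that transcript has 4398 bases. Its CPM and FPKM in shCtrl replicate 1 were 40.3 and 40.2, as with a far shorter transcript, so its offset value is uncertain. With that offset 2 of these 4 genes were lower and 2 higher, where 27.9% and 35.2% of all genes tested were.

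**Figure D2:**
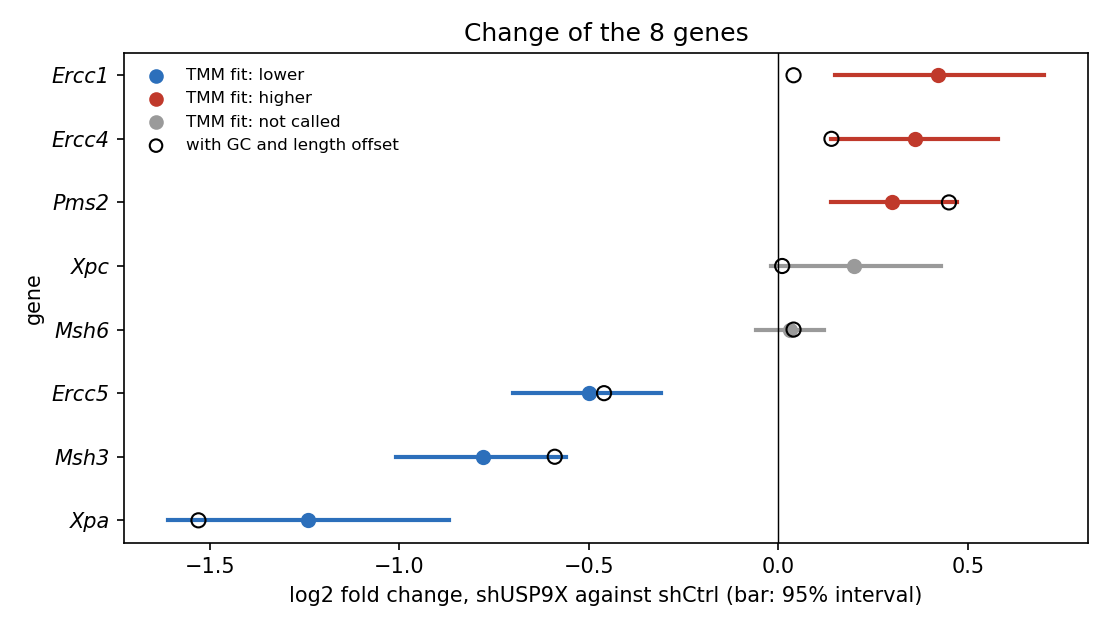
Log2 fold change (shUSP9X against shCtrl) of the 8 genes in edgeR, with filled points for the TMM fit, bars for its 95% interval and open circles for the fit with an offset for GC content and length. *Xpa*, *Msh3* and *Ercc5* lie below 0 in both fits, while the open circles of *Ercc1* (0.04) and *Xpc* (0.01) sit close to 0.

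Of the excision repair genes, *Xpa* (chr4:46155347-46196311, minus strand), the lesion verification factor, changed most among the 8. It was counted 163 and 168 times with the control hairpin and 91 and 64 times with the USP9X hairpin, or 9.4 and 10.6 against 4.6 and 3.8 CPM. The groups were well separated, at the lowest level among the 8 genes on the CPM scale, where 18.7% of the genes tested had a lower mean. The log2 fold change was -1.24 (SE 0.18, interval -1.61 to -0.87, edgeR adjusted p = 1.1e-06), or 2.37-fold lower. A change at least this far from 0 was found in 10.3% of the genes tested.

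*Ercc5* (chr1:44147744-44181260, plus strand), the nuclease of the 3′ cut, had 29.3 and 31 CPM in shCtrl and 21.7 and 20.8 in shUSP9X. The libraries of each group lay close together and the groups did not overlap. The log2 fold change was -0.50 (SE 0.10, interval -0.7 to -0.31, edgeR adjusted p = 4.3e-05), below the study's fold cutoff.

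The subunits of the 5′ nuclease were both called higher. *Ercc4* (chr16:13109684-13150617, plus strand), the catalytic subunit, had 17 and 16.9 CPM in shCtrl and 21.6 and 22.1 in shUSP9X, with little spread in either group. Its log2 fold change was 0.36 (SE 0.11, interval 0.14 to 0.58, edgeR adjusted p = 0.00407). With the GC content and length offset it was 0.14 (edgeR adjusted p = 0.242) and no longer called.

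*Ercc1* (chr7:19344778-19356524, plus strand), the DNA-binding subunit, had 15.8 and 12 CPM in shCtrl and 20.6 and 16.6 in shUSP9X. The groups did not overlap, but the lower shUSP9X library was only slightly above the higher shCtrl library. The log2 fold change was 0.42 (SE 0.13, interval 0.15 to 0.7, edgeR adjusted p = 0.00704). The call did not hold without shCtrl replicate 2 (log2 fold change 0.25, adjusted p = 0.124), without shUSP9X replicate 1 (0.26, adjusted p = 0.159), or with the GC content and length offset (0.04, adjusted p = 0.789), all in edgeR. It was at 0.65 without shCtrl replicate 1. The FPKM ratio of *Ercc4* to *Ercc1* was 0.397 and 0.515 in shCtrl and 0.393 and 0.507 in shUSP9X, so the ranges of the ratio in the groups overlapped.

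*Xpc* (chr6:91489305-91515888, minus strand), the sensor of helix distortion, had 18.3 and 22.8 CPM in shCtrl and 24 and 23.2 in shUSP9X. Both knockdown libraries were above both controls, although shCtrl replicate 2 came close to them. The log2 fold change of 0.20 (SE 0.11, interval -0.02 to 0.43) did not pass the test (edgeR adjusted p = 0.102). Without shCtrl replicate 2 it was 0.37 and passed (edgeR adjusted p = 0.00736), whereas without shCtrl replicate 1 it was 0.06 (edgeR adjusted p = 0.661), so the value for *Xpc* depended on which control was kept.

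The order of the 8 genes by FPKM shifted with the knockdown. In shCtrl it ran *Msh6* (mean 48.6), *Pms2* (11.6), *Xpa* (10.7), *Ercc1* (10.3), *Ercc5* (7.79), *Msh3* (7.38), *Xpc* (5.68) and *Ercc4* (4.62). *Pms2*, *Xpa* and *Ercc1* overlapped from library to library, as did *Ercc5* and *Msh3*. In shUSP9X it ran *Msh6* (48.8), *Pms2* (16.8), *Ercc1* (13.5), *Xpc* (6.39), *Ercc4* (5.97), *Ercc5* (5.37), *Xpa* (4.44) and *Msh3* (4.33). *Msh6* was far above the others in every library, whereas *Xpa* went from the third place to the seventh, with the libraries of *Xpa* and *Msh3* overlapping there.

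Lesion recognition outside these 8 genes was mixed. Of 8 such genes, 2 were lower, 3 higher and 3 not called, beside 33.6% of all genes called lower and 33.8% higher. Their median log2 fold change was -0.04. *Cul4b*, a cullin scaffold of the ubiquitin ligase that acts at ultraviolet damage, had 135 and 132 CPM in shCtrl against 63 and 61 in shUSP9X. Its log2 fold change was -1.11 (SE 0.05, edgeR adjusted p = 4.2e-16), or -0.34 with that offset. *Ddb2*, the damage-binding subunit of that ligase, was lower by the test (-0.52, edgeR adjusted p = 0.0311), but not without shCtrl replicate 1 (-0.44, adjusted p = 0.139), shUSP9X replicate 1 (-0.41, adjusted p = 0.205) or shUSP9X replicate 2 (-0.62, adjusted p = 0.0518). *Rbx1*, *Rad23b* and *Ddb1*, the RING subunit, the Xpc partner and the ligase adaptor, rose by 0.25, 0.26 and 0.34 on the log2 scale, with *Rad23b* at 0.40 under the offset. With it, 4 of the 8 were lower and 4 higher, where 27.9% and 35.2% of all genes tested were.

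Transcription-coupled repair begins where RNA polymerase stalls at a lesion, without Xpc. Of its 7 genes, 2 were lower, 4 higher and 1 not called, with a median of 0.14, beside 33.6% of all genes called lower and 33.8% higher. *Uvssa*, which brings TFIIH to the stalled polymerase, had 20.2 and 19.5 CPM in shCtrl and 3.44 and 3.62 in shUSP9X, a log2 fold change of -2.49 (SE 0.15, edgeR adjusted p = 7.3e-14). That was the largest fall in this edgeR fit among all 58 genes of both pathways described here, and *Usp9x* itself fell further. In limma on FPKM with a pseudocount of 1, *Uvssa* was at -1.35 and *Pms1* at -1.66. *Ercc6* (CSB), the translocase at the stalled polymerase, had 18 and 17.7 against 9.21 and 9.14 CPM (log2 fold change -0.96, edgeR adjusted p = 2.0e-07). *Ercc8* (CSA), the ligase subunit that works with it, went the other way, from 9.98 and 7.21 to 15.3 and 15.7 CPM (log2 fold change 0.85, edgeR adjusted p = 1.2e-05). *Xab2* and *Elof1*, both tied to elongating polymerase, rose by 0.43 and 0.54. Once GC content and length were taken out, *Ercc6* was at -0.44, *Xab2* at 0.15 (edgeR adjusted p = 0.0492, or 0.0521 with a replicate block as well) and *Elof1* at 0.11, not called (edgeR adjusted p = 0.199), which left 2 lower, 3 higher and 2 not called. Of all genes tested, 27.9% were then lower and 35.2% higher.

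TFIIH, the helicase complex that *Xpa* and *Ercc5* act with, had 3 genes lower, 4 higher and 3 not called among its 10. Their median was 0.06, and 33.6% of all genes were called lower and 33.8% higher. None of the 10 passed the study's cutoff in edgeR, although the 7 called genes had an unadjusted p under 0.05. At that cutoff 18.7% of all genes were lower and 10.8% higher. *Ercc2* (XPD), the helicase that unwinds DNA for repair, had 33.2 and 40 CPM in the controls and 54.9 and 49.4 after knockdown (log2 fold change 0.52, edgeR adjusted p = 4.8e-06, and 0.34 with the offset). *Gtf2h3* and *Gtf2h4*, core subunits, were each at 0.51, and with the offset *Gtf2h4* was at 0.14 and not called (edgeR adjusted p = 0.18). *Gtf2h2*, *Gtf2h1* and *Ccnh* were called lower at -0.46, -0.34 and -0.28, but with the offset *Gtf2h2* was at 0.28, *Gtf2h1* at -0.09 and *Ccnh* at 0.81. At 0.28 *Gtf2h2* was not called (edgeR adjusted p = 0.0507), but it was called higher with a replicate block as well (edgeR adjusted p = 0.0264). Of the 3 not called, *Mnat1*, of the kinase module, went from -0.17 to 1.14, *Gtf2h5* from 0.13 to 0.62 and *Cdk7* from -0.01 to 0.26, all called with the offset. The tally of TFIIH thus became 0 lower, 7 higher and 3 not called with it, with a median of 0.31, beside 27.9% of all genes called lower and 35.2% higher in that fit, and none of the 10 genes was below 0 at an unadjusted p under 0.05. *Gtf2h2* also lost its call without shUSP9X replicate 1 (-0.26, edgeR adjusted p = 0.118).

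*Slx4*, the scaffold that binds the Ercc4-Ercc1 nuclease, had 29.7 and 32.3 CPM in shCtrl and 37.1 and 33.3 in shUSP9X and was not called (log2 fold change 0.19, edgeR adjusted p = 0.0626). It passed with upper quartile scaling (0.22, adjusted p = 0.03), with a filter of at least 1 count in some library (0.20, adjusted p = 0.0474), without shCtrl replicate 2 (0.25, adjusted p = 0.0249) or without shUSP9X replicate 2 (0.27, adjusted p = 0.0317), and was at 0.11 without shUSP9X replicate 1 (adjusted p = 0.444) and 0.13 without shCtrl replicate 1 (adjusted p = 0.232).

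Resynthesis and ligation, which close the gap in both pathways, had 11 of 20 genes higher, 1 lower and 8 not called, with a median of 0.22. The single lower gene was *Rfc1*, the large subunit of the clamp loader, with 192 and 185 CPM in shCtrl against 89.8 and 88 in shUSP9X (log2 fold change -1.08, edgeR adjusted p = 9.5e-17). *Pold2* and *Pold1*, subunits of the replicative polymerase delta, and *Rpa2*, of the single-strand binding complex, were at 0.73, 0.47 and 0.72, or 0.41, 0.32 and 0.45 with the offset, which gave 13 of the 20 higher, 2 lower and 5 not called and left *Lig1*, a ligase, at -0.02 from 0.22, beside 35.2% of all genes called higher. Over the 50 further genes of both pathways, 11 (22%) were lower and 23 (46%) higher, with a median of 0.12, beside the 33.6% and 33.8% of all genes tested. With the offset 10 were lower and 29 higher, with a median of 0.23 against 0.03 over all genes, of which 27.9% were then called lower and 35.2% higher. At the study's cutoff 6 (12%) were lower and 3 higher, where 18.7% of all genes tested were lower and 10.8% higher.

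**Figure D3:**
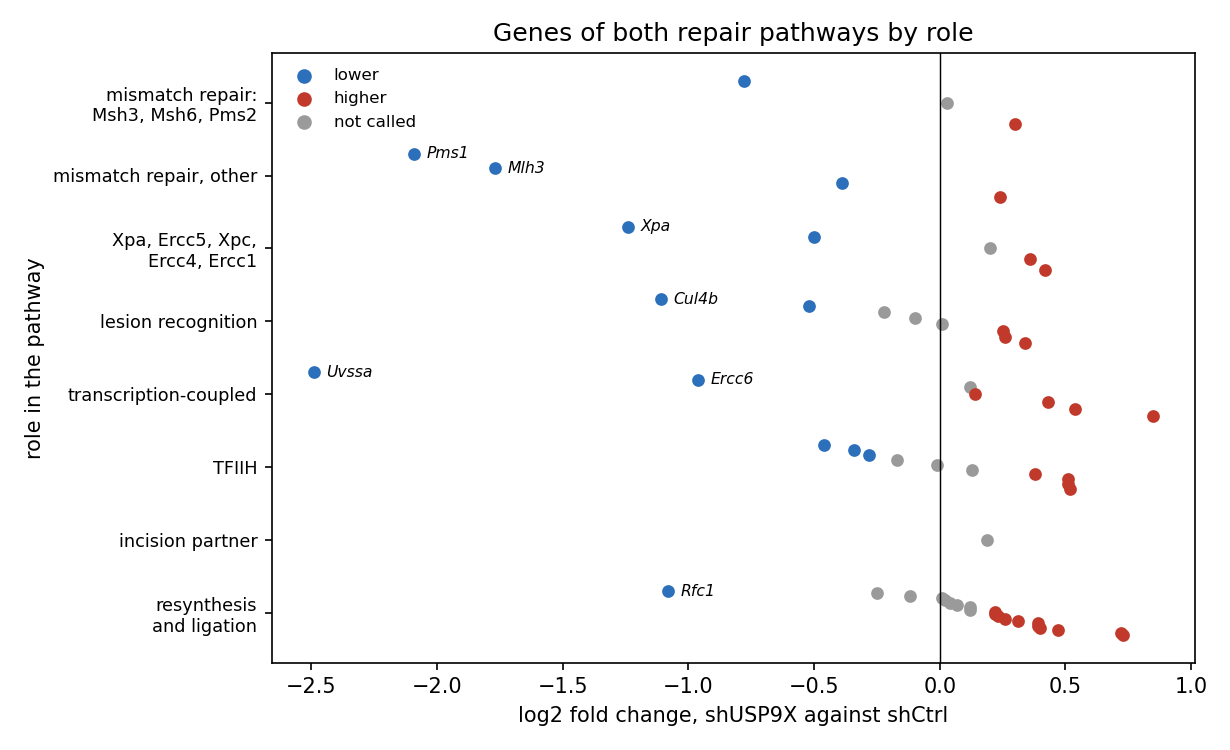
Log2 fold change (shUSP9X against shCtrl, edgeR) of each gene of both pathways, one row per role and one point per gene, colored by its call at an adjusted p under 0.05. Points past a fall of 0.9 are named, and *Uvssa* at -2.49, *Pms1* at -2.09 and *Mlh3* at -1.77 lie farthest to the left.

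Resynthesis genes also serve DNA replication, so proliferation genes were read beside them. Of 14, 8 were higher, 3 lower and 3 not called, with a median of 0.20, beside 33.8% of all genes called higher and 33.6% lower. *Ccne1*, the S-phase entry cyclin, and *Mcm5*, of the replicative helicase, were at 1.11 and 0.76. *Mki67*, the gene of the Ki-67 antigen, had 910 and 840 CPM in the controls and 39.9 and 40.1 after knockdown (log2 fold change -4.45), and *Top2a*, the topoisomerase of dividing cells, was at -1.11. Of 10 targets of p53, the transcription factor of the DNA damage response, 6 were lower, 2 higher and 2 not called. Their median was -0.33, and the shares of all genes were again 33.6% lower and 33.8% higher. *Trp53inp1* and *Gadd45a* were at -1.74 and -1.17, and *Bax* and *Cdkn1a* at 0.41 and 0.55. Once GC content and length were taken out, *Trp53inp1* was at -0.41, *Bax* at 0.14, *Cdkn1a* at 0.24 and *Top2a* at -0.52, all still called, while *Mki67* was at -3.86 and *Gadd45a* at -1.45. *Ccne2*, the third lower proliferation gene, turned from -0.94 to 0.59, and the p53 target *Zmat3* from -0.15 to 0.23, both called higher. The tallies were then 10 proliferation genes higher and 4 lower, and 3 p53 targets higher and 7 lower. Of all genes tested, 35.2% were higher and 27.9% lower with the offset. Whether the proliferation genes and p53 targets moved together with the repair genes for a shared reason was not tested.

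The neighbours of the repair genes did not all follow them. *Aimp2*, a scaffold of the tRNA synthetase complex on the far side of the 116 bases shown for *Pms2*, rose with it, from 40.5 and 40.6 to 73.7 and 70.7 CPM (log2 fold change 0.83, edgeR adjusted p = 1.4e-11). *Lsm3*, a splicing factor across the 39 bases from *Xpc*, went from 35.9 and 36 to 59.3 and 61.7 CPM (log2 fold change 0.75, edgeR adjusted p = 4.2e-10).

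The other 3 tested neighbours overlap a repair gene. *Cd3eap*, an RNA polymerase I subunit that shares 106 exonic bases with *Ercc1*, was at 0.65 (edgeR adjusted p = 5.2e-09). *Ncbp1*, of the nuclear cap-binding complex, shares 77 exonic bases with *Xpa* and rose by 0.45 (edgeR adjusted p = 9.8e-10) while *Xpa* fell. *Fbxo11*, a ubiquitin ligase subunit that shares 34 bases with *Msh6*, was at -1.11 (edgeR adjusted p = 1.0e-14) while *Msh6* was at 0.03. With the offset for GC content and length the neighbours kept their directions and calls at smaller sizes, with *Fbxo11* at -0.40, *Aimp2* at 0.43, *Cd3eap* at 0.34, *Ncbp1* at 0.38 and *Lsm3* at 0.58. The 3 overlapping neighbours lie on the opposite strand to their partner, and whether counting used strand is not given in the sources used here, so reads in the shared bases cannot be told apart. *Gm42421*, which shares 394 exonic bases with *Pms2* on the same strand, and *Gm17135*, which overlaps it on the other strand with 0 exonic bases in common, were not analysed here. *Rsph10b*, which shares 85 exonic bases with *Pms2* on the same strand, had 0 counts in 3 libraries and 1 in shUSP9X replicate 2. *Gm20379*, inside *Msh3*, had 0 counts in every library.

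**Figure D4:**
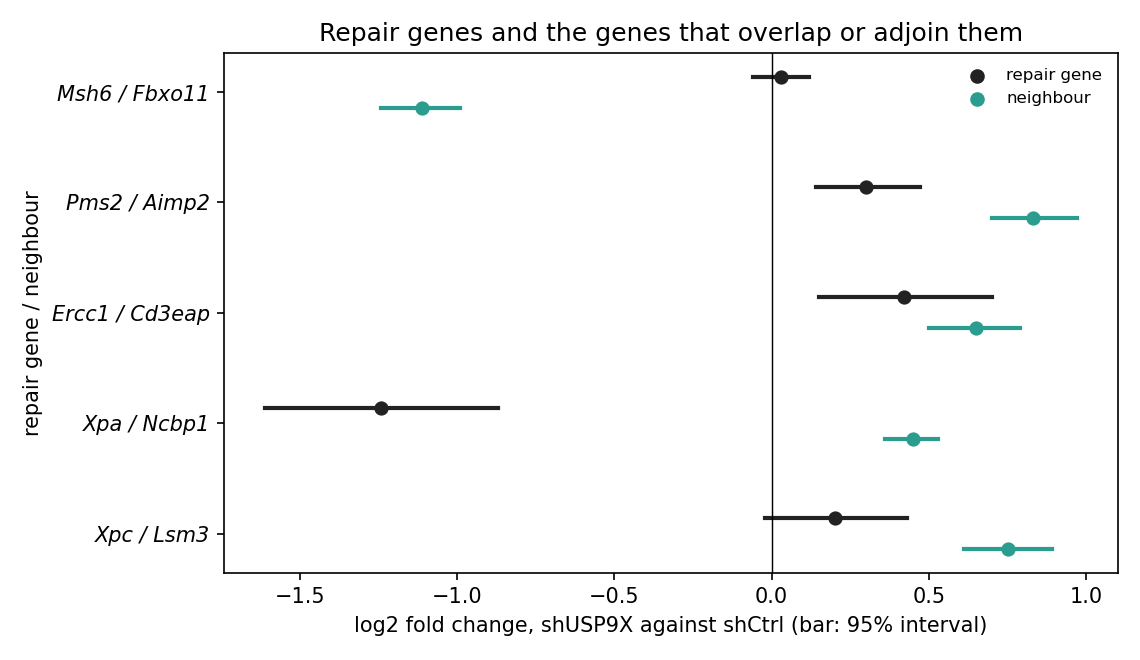
Log2 fold change (shUSP9X against shCtrl, edgeR, bars for the 95% interval) of 5 repair genes, in black, and the tested gene that overlaps or adjoins each, in green. *Xpa* and *Ncbp1* lie on opposite sides of 0, *Fbxo11* lies at -1.11 beside *Msh6* at 0.03, and *Aimp2* and *Lsm3* lie above *Pms2* and *Xpc*. With the offset for GC content and length, which is not drawn, *Fbxo11* was at -0.40 and *Aimp2* at 0.43, just below *Pms2* at 0.45.

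The change of a gene went with the GC content of its transcript in these libraries. With the genes split into 4 classes of equal size by GC content, the median change was -0.52 on the log2 scale in the lowest class (31.9% to 45.3%), -0.03 and 0.17 in the next classes and 0.22 in the highest (54.9% to 74.7%). *Msh3* (45.9%), *Ercc5* (47.9%), *Pms2* (48.3%), *Msh6* (48.9%) and *Xpa* (50%) were all in the second class, *Xpc* (53.1%) and *Ercc4* (53.6%) in the third and *Ercc1* (57.6%) in the highest. Genes of much the same GC content therefore moved in opposite directions among the 8. With an offset that removes the trend on GC content and length, *Msh3* was at -0.59 (edgeR adjusted p = 5.7e-05), *Xpa* at -1.53 (adjusted p = 8.5e-08), *Ercc5* at -0.46 and *Pms2* at 0.45 (adjusted p = 2.7e-05), and these 4 kept their calls. *Pms1*, *Mlh3*, *Uvssa* and *Rfc1* stayed lower with it at -1.33, -1.26, -1.97 and -0.87. *Usp9x* itself was at -2.31 with the offset.

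**Figure D5:**
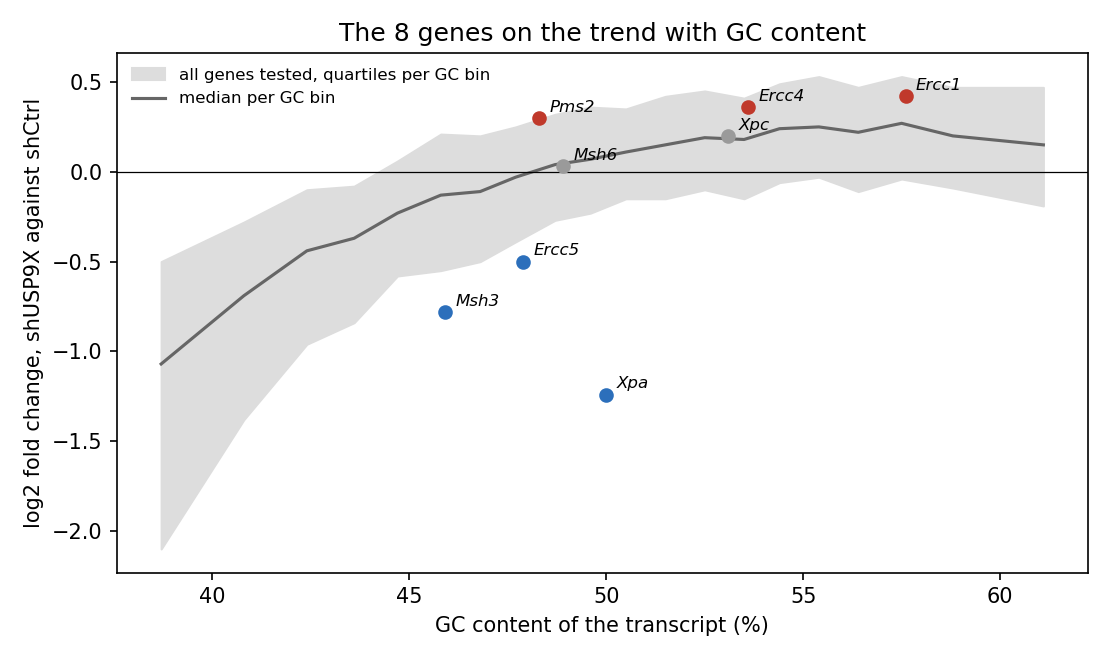
Log2 fold change (shUSP9X against shCtrl) against the GC content of the transcript in percent. The line and the band give the median and the quartiles of all genes tested in 20 bins of GC content, and the points are the 8 repair genes. *Xpa*, *Msh3* and *Ercc5* lie below the band, while *Xpc*, *Ercc4* and *Ercc1* lie inside it at higher GC content.

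The pattern of *Xpa*, the lowest of the 8 in log2 fold change, was set beside those of all genes tested by the Euclidean distance of log2 CPM over the 4 libraries. Nearest to *Xpa* were *Lctl* (distance 0.19), *Zfp974* (0.228) and *Snn* (0.239). The measure takes in both level and change, and with 4 libraries it describes a likeness only.

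The cell type label was read from markers. The 8 markers of ovarian surface epithelium, the origin of ID8, summed to 2410 and 2440 CPM in shCtrl and 2770 and 2720 in shUSP9X. *Krt19* was the most abundant, and *Krt7* had 0 counts in both shCtrl libraries and 2 and 3 in shUSP9X. Of the 7 tested, 3 were higher, 2 lower and 2 not called, where 33.8% of all genes tested were higher and 33.6% lower. The keratins *Krt8*, *Krt18* and *Krt19* were called higher at 0.92, 0.64 and 0.12, or 0.59, 0.25 and -0.24 with the offset. Of the rest, *Wt1* and *Msln* were called lower at -0.52 and -0.47 (edgeR adjusted p = 4.0e-12 and 1.3e-11), or -0.76 and -0.78 with the offset. *Upk3b* and *Cdh1* were not called, at 0.05 and 0.21. With the offset 4 of the 7 were lower, *Krt19* and *Upk3b* (-0.18) among them, and 2 higher, beside 27.9% and 35.2% of all genes. The rise of the sum was thus not shared across the list. The 6 leukocyte markers summed to 0.0577 and 0.316 CPM in shCtrl and 5.01 and 4.75 in shUSP9X, with *Cd74* the most abundant at 2.48 and 2.67 CPM in shUSP9X. Among them *Cd3e* had 0 counts in every library, *Ptprc* 0 and 0 against 29 and 18 and *Csf1r* 0 and 0 against 17 and 13. All 3 that were tested, *Cd74*, *Ptprc* and *Csf1r*, were called higher, where 33.8% of all genes tested were. *Cd74* had 1 and 4 counts in shCtrl against 49 and 45 in shUSP9X. These 3 passed the filter on low counts only through the shUSP9X libraries. A call of any of them could therefore only be higher, and nothing is drawn from their number. The 4 endothelial markers summed to 10.4, 11.6, 6.48 and 7 CPM in the order of the libraries, mostly *Tek*, with *Cdh5* and *Kdr* at 0 counts, and the 4 erythroid markers to 0.115, 0, 0.0506 and 0.653 CPM. The leukocyte sum thus moved with the knockdown but stayed below 6 CPM, and its part in the repair genes was not tested. In these bulk libraries, fewer cells that express a gene and less of its RNA per cell cannot be told apart.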

How the data were processed

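Poly(A)-selected RNA from ID8 cells (2 shCtrl and 2 shUSP9X libraries) was sequenced on an Illumina instrument. The submitters' processing notes name fastp 0.18.0, Bowtie2 2.2.8, HISAT2, StringTie 1.3.1 and RSEM, and the study used GRCm38. The authors deposited estimated counts per gene, 6.4% to 6.69% of them not whole, and FPKM values. The design had assumed raw counts, so estimated counts were rounded. Genes passing filterByExpr (11448) were tested with edgeR 4.0.16 (R 4.3.3, TMM, quasi-likelihood, Benjamini-Hochberg adjusted p under 0.05). The script was first tested on simulated data. With no GC trend in those data, 13 of 11128 genes given no change were called. With a GC trend, 5194 of 11143 such genes were called without an offset and 4 with one. The main fit used no offset, and how many of its calls were of this kind was not tested. CPM in the text carry TMM factors, and intervals are 95% intervals of the fit. The common biological coefficient of variation was 0.0352. The alternatives used DESeq2 1.42.0, limma 3.58.1 on FPKM with pseudocounts of 1 and 0.1, other scalings and filters, an offset for GC content and length, a replicate block, and each library left out. Coordinates, overlaps and GC content came from GENCODE M21 (GRCm38), which held 21973 of the gene identifiers. GC content and length were those of the longest protein-coding transcript of each gene, where it had one. Where another transcript is the one expressed, the offset used the wrong values. Genes named were Usp9x, the 8 genes, their neighbours within 1000 bases, up to 3 called genes each way per pathway list (all where a list held under 6), up to 2 for proliferation and p53 targets, and the 3 patterns nearest to Xpa. Some results that the rule would name are not reported here. Epithelial markers and genes named only for their value with the offset lie outside the rule and were chosen after their values were seen. The genes and lists were chosen with earlier results of these data known.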

Additional observations from a re-analysis of the deposited data

How the results depend on the processing

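With 16 alternatives per gene, *Msh3* stayed between -0.94 and -0.59 and *Xpa* between -1.53 and -1.11 on the log2 scale, both called in all 16, and *Ercc5* between -0.54 and -0.46, called in all but the study's fold cutoff. *Usp9x* stayed between -3.91 and -2.31 over 15 alternatives. *Pms2*, *Ercc1* and *Ercc4* were not called at the fold cutoff, which left 0 of the 8 higher, and *Ercc1* also lost its call in limma on FPKM (0.36, adjusted p = 0.0675, with a pseudocount of 1, and 0.39, adjusted p = 0.0681, with 0.1). That cutoff left 6 further pathway genes lower and 3 higher, and 2143 and 1233 of all genes. The GC content and length offset left 1 of the 8 higher, where 35.2% of all genes tested were, and 3 lower, where 27.9% were. With a replicate block as well, the counts of the 8 were again 1 and 3. Both forms of the offset turned *Ssbp1* to 0.49, *Gtf2h2* to 0.28 and *Ccnh* to 0.81. *Ddb2* also missed the threshold in DESeq2 (adjusted p = 0.134). The cause of these shifts was not tested.

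Leaving out each library in turn gave 3 to 3 of the 8 lower and 2 to 3 higher, 10 to 12 and 22 to 24 of the further pathway genes, 3318 to 3652 and 3423 to 3869 of all genes, and -3.89 to -3.8 for *Usp9x*. A lone library in a group was then assumed to vary like the pair in the other. Replicate numbers did not pair the libraries (correlation of the deviations -0.0453). The replicate block alone gave 3 of the 8 lower and 3 higher, beside 3810 and 3855 of all genes. The median over all genes shifted by no more than 0.03 with any other scaling. Replicates differed beyond counting error (chi-square per gene 3.36 in shCtrl and 2.09 in shUSP9X). At 64 to 168 counts per library, *Xpa* was the least deeply measured of the 8.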
